A study of Homo sapiens with 6 samples.

Results

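Ephrins, semaphorins, Slits and netrins are signals that steer growing axons and migrating neural crest cells, and Eph, plexin, neuropilin, Robo and UNC5 proteins are their receptors. The 62 guidance genes described here were taken by symbol from the deposited table of 18539 genes, with 2 antisense symbols left out. The rule uses no expression value, but it was chosen with earlier results of these data known. Another 8 protein-coding genes with such symbols have no row in the table and were not analysed here. The RNA came from A375 cells, a line grown from a human malignant melanoma, after lentiviral delivery of a short hairpin RNA and selection with puromycin. In 3 libraries the cells carried a control hairpin (shControl) and in 3 a hairpin against MMP9, the gene of the secreted gelatinase matrix metalloproteinase 9 (shMMP9). Both groups were cultured in the same medium with fetal bovine serum, and all 6 libraries come from 1 cell line.

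The hairpin is the only one against MMP9 that the labels describe, they give no sequence for the control, and they do not say whether the replicates were separate cultures. The p-values therefore measure the spread between these libraries, which may be technical. Its target is printed because every comparison rests on this 1 hairpin, and it matched 1 of 206694 annotated transcripts over its full 21 bases, in exon 4 of 13 of MMP9 on the plus strand of GRCh38 (chr20:46010992-46011012).
MMP9 hairpin target: cattcagggagacgcccattt
No transcript of the 62 guidance genes shared a run of more than 11 bases with this target, and the gene with that run was EFNB2. Only the longest exact run was sought, so effects of the hairpin through shorter matches were not tested. Levels are counts scaled to a common upper quartile of the library, so 1 read is worth 0.0325 to 0.0397 of a scaled count. MMP9 stood at 26.1, 24.3 and 28.7 in shControl replicates 1 to 3 and at 16.15, 14.55 and 17.1 in shMMP9 replicates 1 to 3. The groups did not overlap, and shMMP9 averaged 0.605 times the control level, so MMP9 transcript was reduced and not removed. In bulk RNA such as this, a change in the share of cells that express a gene and a change in RNA per cell cannot be told apart.

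As background, Eph receptors are receptor tyrosine kinases whose ephrin ligands sit on neighbouring cells, ephrin-A proteins by a lipid anchor and ephrin-B proteins by a membrane-spanning segment. Semaphorins act through plexins, and most of the secreted class use neuropilins as co-receptors. Slits act on Robo receptors, and netrin-1 acts on DCC, neogenin and UNC5 receptors. All of these pathways act on the cytoskeleton, and melanocytes descend from neural crest cells that use the same cues when they migrate.

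Of the 62 guidance genes, 59 passed the filter on low counts and were tested. Differences are those of log2(scaled count + 1), shMMP9 minus shControl, tested with limma over all 17194 genes, and a gene passed at a Benjamini-Hochberg adjusted p under 0.05. In shMMP9 14 of the 59 were higher and 31 lower, so 76.3% passed, against 57.5% of all genes tested (25.0% higher and 32.5% lower). At a log2 difference of at least 1 in size, which is 2-fold for scaled count + 1, 5 were higher and 6 lower. They made up 18.6% of the 59, against 8.17% of all genes tested. On this scale a gene can fall short although its means are over 2-fold apart, as PLXNA2 did (2.09-fold). The groups did not overlap for 46 of the 59 (78.0%), against 62.7% of all genes tested. The median difference of the 59 was -0.25, beside -0.05 over all genes tested. Among genes at a mean scaled count of 5 or more 35 of 41 guidance genes passed (85.4%), against 64.0% of all genes tested at that level.

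**Figure D1:**
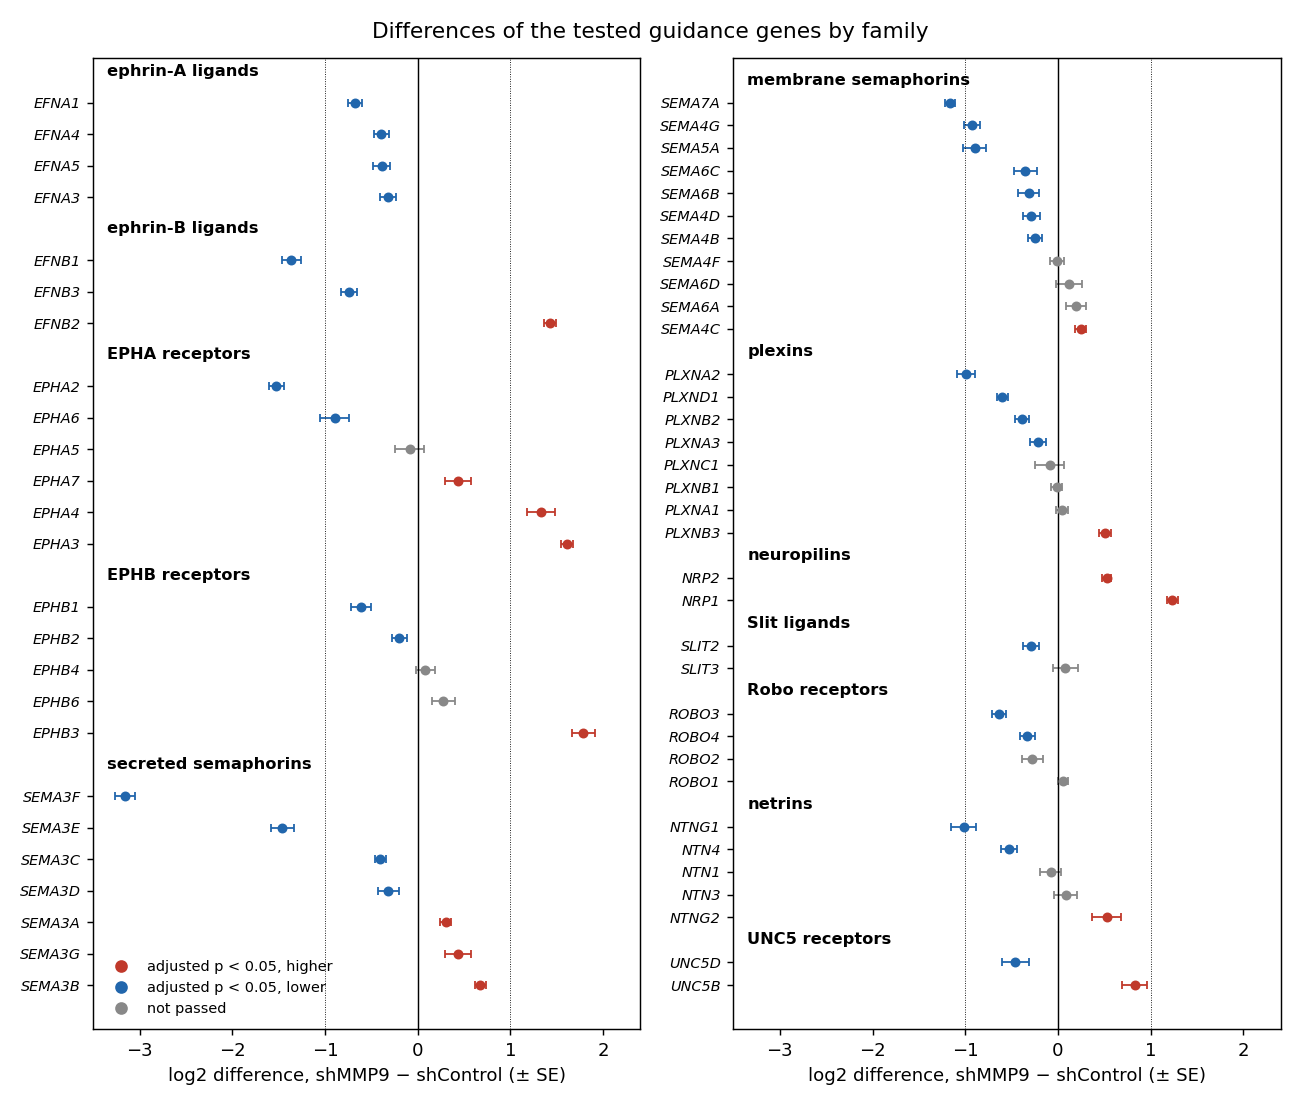
Each point is the log2 difference (shMMP9 minus shControl, on the log2(scaled count + 1) scale) of 1 of the 59 tested guidance genes, grouped by family, with its standard error, and colour shows the limma call. SEMA3F lies farthest to the left at -3.16 and EPHB3 farthest to the right at 1.79, and dotted lines mark a log2 difference of 1 in size.

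At a mean scaled count of 5 or more, 9 genes passed with a log2 difference of at least 1 in size. SEMA3F, EPHA2, EFNB1 and SEMA7A were lower, and NRP1, EPHA4, EFNB2, EPHA3 and EPHB3 were higher. They made up 22.0% of the 41 guidance genes at that level, against 7.91% of all genes tested at that level. Every call of these 9 held with each library left out in turn. The sequences upstream of 4 of them are shown because they include the largest fall, the most abundant member and a pair of ephrin-B ligands that went opposite ways. The windows are from RefSeq on GRCh38.p14, up to 250 bases before the transcript start and stopped before the first annotated exon of the gene, written 5′ to 3′, and capitals mark matches to GGAATG, the core that TEAD factors bind.
EPHA2, chr1:16156088-16156319, minus strand: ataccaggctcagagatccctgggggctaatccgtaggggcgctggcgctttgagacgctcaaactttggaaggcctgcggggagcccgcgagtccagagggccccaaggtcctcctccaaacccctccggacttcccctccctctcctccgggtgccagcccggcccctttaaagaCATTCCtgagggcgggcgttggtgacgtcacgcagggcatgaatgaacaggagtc
SEMA3F, chr3:50154808-50155044, plus strand: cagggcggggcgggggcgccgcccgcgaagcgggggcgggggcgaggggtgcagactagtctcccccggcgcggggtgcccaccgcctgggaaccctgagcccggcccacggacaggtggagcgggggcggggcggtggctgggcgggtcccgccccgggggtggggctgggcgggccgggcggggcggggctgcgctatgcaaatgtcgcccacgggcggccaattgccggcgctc
EFNB1, chrX:68828771-68828996, plus strand: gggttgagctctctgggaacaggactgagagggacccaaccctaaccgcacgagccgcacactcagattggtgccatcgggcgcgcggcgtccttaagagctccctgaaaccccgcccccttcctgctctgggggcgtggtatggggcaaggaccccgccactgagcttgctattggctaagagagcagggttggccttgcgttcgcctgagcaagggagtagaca
EFNB2, chr13:106535663-106535912, minus strand: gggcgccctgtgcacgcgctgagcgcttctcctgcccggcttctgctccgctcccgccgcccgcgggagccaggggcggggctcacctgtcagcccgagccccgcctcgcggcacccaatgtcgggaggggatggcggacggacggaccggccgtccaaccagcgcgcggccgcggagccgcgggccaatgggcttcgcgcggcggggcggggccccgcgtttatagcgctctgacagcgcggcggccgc
The EPHA2 window held 1 such match, read on the opposite strand, starting at base 178, and the other 3 windows held none. Both strands were searched for GGAATG, for TGANTCA (the AP-1 core) and for CACGTG (an E-box), and the match in EPHA2 overlaps no other of these 3 motifs. Of the 62 guidance genes 52 have a window in that table, and 3 of these held GGAATG (EPHA2, PLXNB3 and SEMA4A), against 11.9% of 27305 genes. TGANTCA was found in 1 of the 52 and in 6.6% of all, and CACGTG in 3 of the 52 and in 6.49% of all. The window of EFNB2, which rose, was 78.4% G and C with 40 CpG sites in 250 bases. Of the genes that fell, SEMA3F had 81.9% with 31 CpG sites in 237 bases, EPHA2 63.8% with 14 in 232, and EFNB1 62.8% with 13 in 226.

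**Figure D2:**
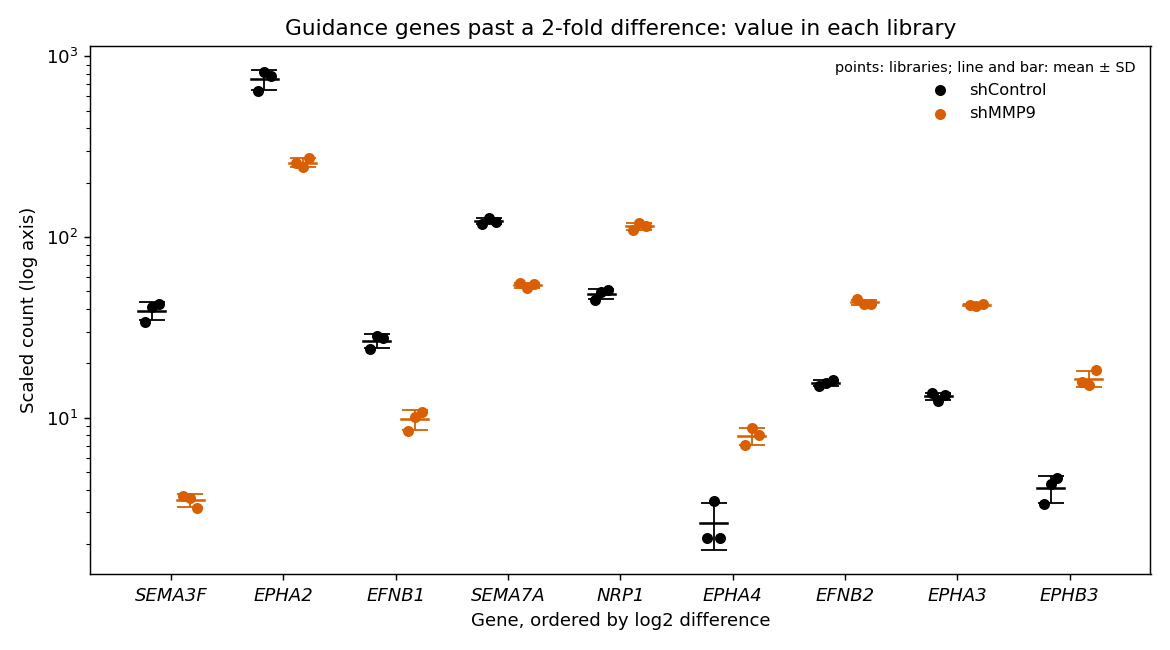
The 9 guidance genes that passed at a mean scaled count of 5 or more with a log2 difference of at least 1 in size. Scaled counts (log axis) are shown with 1 point per library and the mean ± SD of 3 libraries per group. The groups are apart for all 9, and SEMA3F shows the widest interval, 39.2 in shControl against 3.49 in shMMP9.

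Among the 11 Eph receptors in the table the most abundant per length fell and 4 others rose. Of the 6 EPHA receptors 3 were higher and 2 lower, and of the 5 EPHB receptors 1 was higher and 2 lower. Of all 11, 72.7% passed, beside 57.5% of all genes tested. EPHA2 (ENSG00000142627.12, chromosome 1, 16124337 to 16156087, GRCh38) is a receptor that many melanomas express strongly. EPHA2 stood at 642, 818 and 782 in shControl replicates 1 to 3 and at 258, 243 and 273 in shMMP9 replicates 1 to 3. All 3 shMMP9 libraries lay far below the lowest shControl library, which was replicate 1. The mean was 2.895-fold lower, and the log2 value fell by 1.52 (SE 0.0791, adjusted p = 2.74e-09). Measured per kilobase of exon, EPHA2 made up 98.3% of the summed EPHA level in shControl, and that sum was 183 ± 22.3 in shControl and 70.3 ± 3.615 in shMMP9.

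EPHA3, EPHA4 and EPHB3 rose by more than 2-fold, each from a level far below that of EPHA2. EPHA3 (chromosome 3, 89107524 to 89482134), a receptor for several ephrin-A ligands, stood at 13.7, 12.45 and 13.3 in shControl replicates 1 to 3 and at 42.3, 41.8 and 42.4 in shMMP9 replicates 1 to 3. Its groups were 3.205-fold apart and both were narrow, with a log2 difference of 1.61 (SE 0.0673, adjusted p = 2.97e-10). EPHB3 (chromosome 3, 184561784 to 184582409), a receptor for ephrin-B ligands, stood at 3.31, 4.29 and 4.67 in shControl replicates 1 to 3 and at 15.8, 15.3 and 18.4 in shMMP9 replicates 1 to 3. This was the largest rise on the log2 scale among the guidance genes tested, 1.79 (SE 0.122, adjusted p = 4.24e-08), and the lowest shMMP9 library was above every control. EPHA4 (chromosome 2, 221418027 to 221574202), which binds ligands of both ephrin classes, stood at 2.17, 3.48 and 2.165 in shControl replicates 1 to 3 and at 7.085, 8.80 and 8.02 in shMMP9 replicates 1 to 3. Its groups did not overlap, although shControl replicate 2 was above the other controls, and the log2 difference was 1.33 (SE 0.149, adjusted p = 5.35e-06). The size for EPHA4 depends on the pseudocount because it is weakly expressed, and was 0.86 with a pseudocount of 4.

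EPHA6, which was weakly expressed, was lower, from 1.66 ± 0.187 to 0.450 ± 0.287, a 3.69-fold lower mean with a log2 difference of -0.89 (SE 0.157, adjusted p = 2.93e-04). That size was -2.10 with limma-voom and -0.35 with a pseudocount of 4. EPHB4, the ephrin-B2 receptor of veins and the most abundant EPHB member per length, stood at 57.3, 79.5 and 75.7 in shControl replicates 1 to 3 and at 74.04, 69.4 and 79.9 in shMMP9 replicates 1 to 3. Its groups overlapped, with shControl replicate 1 lowest of all 6 libraries, and it did not pass (log2 difference 0.08, adjusted p = 0.494, and -0.06 without that library). EPHB1 was lower, from 11.4 ± 0.923 to 7.115 ± 0.904 (log2 difference -0.61, adjusted p = 3.55e-04). Summed over the 5 EPHB receptors, the level per kilobase was 17.6 ± 2.49 in shControl and 19.8 ± 1.27 in shMMP9. Within libraries the ratio of EPHB3 to EPHB1 per exon length was 0.549 ± 0.0518 in shControl and 3.59 ± 0.487 in shMMP9, so their order was reversed.

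Of the 7 ephrin genes tested all passed, 6 of them lower and 1 higher, beside 57.5% of all genes tested. EFNB1 (chromosome X, 68828997 to 68842147), the X-linked ephrin-B1 gene, stood at 24.1, 28.3 and 27.6 in shControl replicates 1 to 3 and at 8.46, 10.1 and 10.8 in shMMP9 replicates 1 to 3. EFNB2 (chromosome 13, 106489731 to 106535662), which encodes ephrin-B2, a ligand of EPHB4 and EPHA4, stood at 14.97, 15.5 and 16.2 in shControl replicates 1 to 3 and at 45.15, 42.9 and 42.85 in shMMP9 replicates 1 to 3. These near relatives went opposite ways without overlap, EFNB1 falling by 1.36 (SE 0.0986, adjusted p = 7.57e-08) and EFNB2 rising by 1.43 (SE 0.0652, adjusted p = 6.85e-10) on the log2 scale. The ratio of EFNB2 to EFNB1 per exon length was 0.386 ± 0.02385 in shControl and 2.98 ± 0.481 in shMMP9. EFNB1 was the leading ephrin-B transcript per length in shControl and EFNB2 in shMMP9, and the summed ephrin-B level went from 17.35 ± 0.476 to 15.2 ± 0.353 per kilobase.

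EFNB3, the remaining ephrin-B gene, fell from 19.95 ± 1.38 to 11.6 ± 0.710 (log2 difference -0.74, adjusted p = 7.44e-06). All 4 ephrin-A genes in the table were lower. EFNA1, which encodes the ligand ephrin-A1 of EPHA2 and is the most abundant ephrin per length, stood at 59.1, 48.7 and 49.7 in shControl replicates 1 to 3 and at 33.5, 33.3 and 30.4 in shMMP9 replicates 1 to 3. The log2 value of EFNA1 fell by 0.68 (SE 0.0759, adjusted p = 5.52e-06), with shControl replicate 1 above the other controls and every shMMP9 library below them. EFNA3, EFNA4 and EFNA5 had smaller log2 differences of -0.32, -0.39 and -0.39 (adjusted p from 0.00144 to 0.00561). EPHA2 and its ligand EFNA1 were thus both lower in shMMP9.

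Of 19 semaphorin genes, 18 were tested, with 4 higher and 11 lower (83.3% passed, beside 57.5% of all genes tested). All 7 secreted class 3 genes passed, 3 higher and 4 lower, although the calls of SEMA3D and SEMA3G ended when 1 library was left out. SEMA3F (ENSG00000001617.11, chromosome 3, 50155045 to 50189075), a ligand that repels cells through neuropilin-2, had the largest fall of all guidance genes tested. It stood at 33.9, 41.2 and 42.6 in shControl replicates 1 to 3 and at 3.69, 3.61 and 3.18 in shMMP9 replicates 1 to 3. The lowest control was far above the highest shMMP9 library, with an 11.2-fold lower mean and a log2 difference of -3.16 (SE 0.103, adjusted p = 2.73e-11). The difference ranged from -3.48 to -2.52 over the alternatives run, and 86 or more estimated reads remained in every library.

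SEMA3B, a class 3 ligand best known as a tumour suppressor candidate, is the neighbour of SEMA3F on chromosome 3 and was higher. SEMA3B stood at 152, 161 and 152 in shControl replicates 1 to 3 and at 237, 239.7 and 269 in shMMP9 replicates 1 to 3. It rose by 0.68 (SE 0.0559, adjusted p = 2.87e-07) without overlap. Within libraries, SEMA3B exceeded SEMA3F per exon length by a ratio of 3.335 ± 0.380 in shControl and 59.98 ± 9.37 in shMMP9. SEMA3A, the ligand that collapses growth cones through neuropilin-1, rose from 44.5 ± 0.640 to 55.2 ± 3.38 and SEMA3C fell from 129.5 ± 8.30 to 97.6 ± 3.66, with log2 differences of 0.30 and -0.40. SEMA3E, a ligand of plexin D1, was weak and fell from 3.99 ± 0.223 to 0.820 ± 0.1825 (log2 difference -1.46, adjusted p = 4.99e-07), a size that was -2.29 with limma-voom and -0.73 with a pseudocount of 4. The summed class 3 level per kilobase was 62.4 ± 0.559 in shControl and 67.05 ± 2.195 in shMMP9.

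Of 12 membrane-bound semaphorin genes 11 were tested, with 1 higher and 7 lower (72.7% passed, beside 57.5% of all genes tested). SEMA7A (chromosome 15, 74409289 to 74433958), a lipid-anchored semaphorin that acts on plexin C1 and on beta-1 integrins, stood at 118, 128 and 121 in shControl replicates 1 to 3 and at 55.4, 51.98 and 54.9 in shMMP9 replicates 1 to 3. The libraries of each group lay close together and the groups far apart, with a log2 difference of -1.16 (SE 0.0516, adjusted p = 5.25e-10). Its receptor PLXNC1 was weak, at 2.52 ± 0.581 in shControl and 2.30 ± 0.494 in shMMP9, and did not pass (adjusted p = 0.655). SEMA4G had a log2 difference of -0.93, but it shares 1170 exon bases with MRPL43 on the opposite strand, and as the strand setting of the counts is not given in the sources used here, reads of the pair may not have been told apart (MRPL43 stood at 74.2 and 65.4). SEMA4C, a ligand of plexin B2, was the member that rose, from 57.6 ± 3.59 to 68.4 ± 3.83 (log2 difference 0.24, adjusted p = 0.00401). SEMA4F, SEMA6A and SEMA6D did not pass, with log2 differences from -0.01 to 0.19.

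The neuropilins, co-receptors that bind class 3 semaphorins and vascular endothelial growth factors, both rose. NRP1 (chromosome 10, 33177492 to 33336262) stood at 44.9, 49.4 and 50.8 in shControl replicates 1 to 3 and at 109.9, 119.9 and 115 in shMMP9 replicates 1 to 3. NRP2 (chromosome 2, 205681990 to 205798133), the receptor of SEMA3F, stood at 103, 107 and 112 in shControl replicates 1 to 3 and at 152, 158 and 154 in shMMP9 replicates 1 to 3. Neither gene's groups overlapped, with log2 differences of 1.23 for NRP1 (SE 0.0584, adjusted p = 1.04e-09) and 0.52 for NRP2 (SE 0.0484, adjusted p = 8.44e-07). The ratio of NRP1 to NRP2 per exon length was 0.544 ± 0.0144 in shControl and 0.896 ± 0.0227 in shMMP9. SEMA3F was thus lower and both neuropilins higher in shMMP9.

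Of 9 plexin genes, 8 were tested, with 1 higher and 4 lower (62.5% passed, near the 57.5% of all genes tested). PLXNB2, the most abundant plexin per length and a receptor of SEMA4C, stood at 181, 226 and 216 in shControl replicates 1 to 3 and at 151, 151 and 173 in shMMP9 replicates 1 to 3. Every shMMP9 library was below every control, and the log2 difference was -0.39 (SE 0.0783, adjusted p = 8.99e-04). PLXNA2, a receptor for class 6 and class 3 semaphorins, had the largest difference among the plexins tested, -0.99 (adjusted p = 1.47e-06), from 21.15 ± 2.61 to 10.1 ± 0.494. PLXND1, the receptor of SEMA3E, was lower, from 105 ± 8.095 to 68.9 ± 3.33 (log2 difference -0.60). PLXNB3, a receptor of SEMA5A, was higher, from 51.65 ± 3.51 to 73.99 ± 5.47 (log2 difference 0.51), and 1432 of its exon bases lie in SRPK3, which was weak at 0.964 and 1.30. SEMA5A itself was weakly expressed and lower, from 1.84 ± 0.223 to 0.521 ± 0.0476 (log2 difference -0.90, adjusted p = 3.97e-05, and -1.78 with limma-voom), so SEMA3E and PLXND1 went the same way and SEMA5A and PLXNB3 opposite ways. PLXNA1 and PLXNB1 did not pass, with log2 differences of 0.04 and -0.02.

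Of 13 Slit, Robo, netrin and UNC5 genes tested 2 were higher and 6 lower, so 61.5% passed, near the 57.5% of all genes tested. NTNG1 alone passed with a log2 difference of at least 1 in size (7.69%, beside 8.17% of all genes tested). UNC5B and UNC5D also passed with means more than 2-fold apart, but both are weak and their log2 differences were smaller. ROBO1, a Slit receptor and the Robo gene with the highest level per length over all 6 libraries, stood at 59.3, 58.8 and 64.7 in shControl replicates 1 to 3 and at 63.9, 61.7 and 63.9 in shMMP9 replicates 1 to 3. Its groups overlapped and it did not pass (log2 difference 0.05, adjusted p = 0.428). ROBO3, a divergent Robo receptor, fell from 25.1 ± 1.25 to 15.8 ± 0.709 (log2 difference -0.64, adjusted p = 8.02e-06). ROBO4, the Robo receptor known from endothelium, fell from 39.6 ± 4.30 to 31.2 ± 2.12 (log2 difference -0.33). The 6 endothelial markers, all in the table, summed to 55.9 to 64.8 in shControl and 22.1 to 25.7 in shMMP9, with the defining CDH5 and VWF at means of 1.01 or less in both groups. These markers did not move together. TIE1 fell from 49.9 ± 3.41 to 4.56 ± 0.617 and made up most of the sum in shControl. CDH5 fell from 0.769 ± 0.217 to 0.110 ± 0.0646 (log2 differences -3.20 and -0.67). KDR rose from 6.44 ± 0.414 to 16.1 ± 0.537 and PECAM1 from 1.19 ± 0.346 to 2.045 ± 0.610 (log2 differences 1.20 and 0.47). VWF and TEK did not pass. The part of these markers in the ROBO4 result was not tested. SLIT2, the Slit with 95.5% of the summed Slit level per length in shControl, stood at 19.2, 16.25 and 19.45 in shControl replicates 1 to 3 and at 15.2, 14.7 and 14.3 in shMMP9 replicates 1 to 3. Its groups did not overlap and its log2 difference was -0.29 (adjusted p = 0.011), a call that ended without shControl replicate 3 (adjusted p = 0.0558).

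Among the netrins NTN4, a laminin-related basement membrane netrin and the most abundant here per length, stood at 16.2, 18.6 and 17.6 in shControl replicates 1 to 3 and at 11.1, 11.5 and 12.7 in shMMP9 replicates 1 to 3. Its libraries did not overlap between groups and its log2 difference was -0.53 (SE 0.0880, adjusted p = 1.78e-04). NTNG1, a lipid-anchored netrin, fell from 4.80 ± 0.674 to 1.86 ± 0.280 (log2 difference -1.02, and -0.59 with a pseudocount of 4). NTN1, the classical axon attractant, did not pass, at 3.78 ± 0.266 and 3.52 ± 0.0402 (adjusted p = 0.576). UNC5B, a dependence receptor for netrin-1, stood at 2.815, 2.63 and 3.32 in shControl replicates 1 to 3 and at 6.41, 4.88 and 6.69 in shMMP9 replicates 1 to 3. All 3 shMMP9 libraries were higher than all 3 controls, with a log2 difference of 0.83 (SE 0.135, adjusted p = 1.59e-04), which was 0.53 with a pseudocount of 4.

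Per kilobase of exon, a scale on which genes can be compared, the guidance genes spanned a wide range. EPHA2 was first in both groups, at 179.7 ± 22.4 in shControl and 62.1 ± 3.67 in shMMP9. In shControl SEMA7A (32.2 ± 1.26), PLXNB2 (28.6 ± 3.255) and SEMA3B (26.9 ± 0.970) came next, and PLXNB2 and SEMA3B differed by less than the SD of PLXNB2. In shMMP9 SEMA3B followed EPHA2 at 43.1 ± 3.06, then PLXNB2 at 21.8 ± 1.80, SEMA3C at 15.6 ± 0.584 and SEMA7A at 14.2 ± 0.480. SEMA3F moved from rank 12 of the 62 to rank 42, and EFNB1 from 13 to 28. EFNB2 moved from rank 29 to 13, EPHA3 from 33 to 17 and NRP1 from 24 to 11. Lengths are merged exons of all annotated transcripts, so a gene with long exons that these cells do not use is understated.

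**Figure D3:**
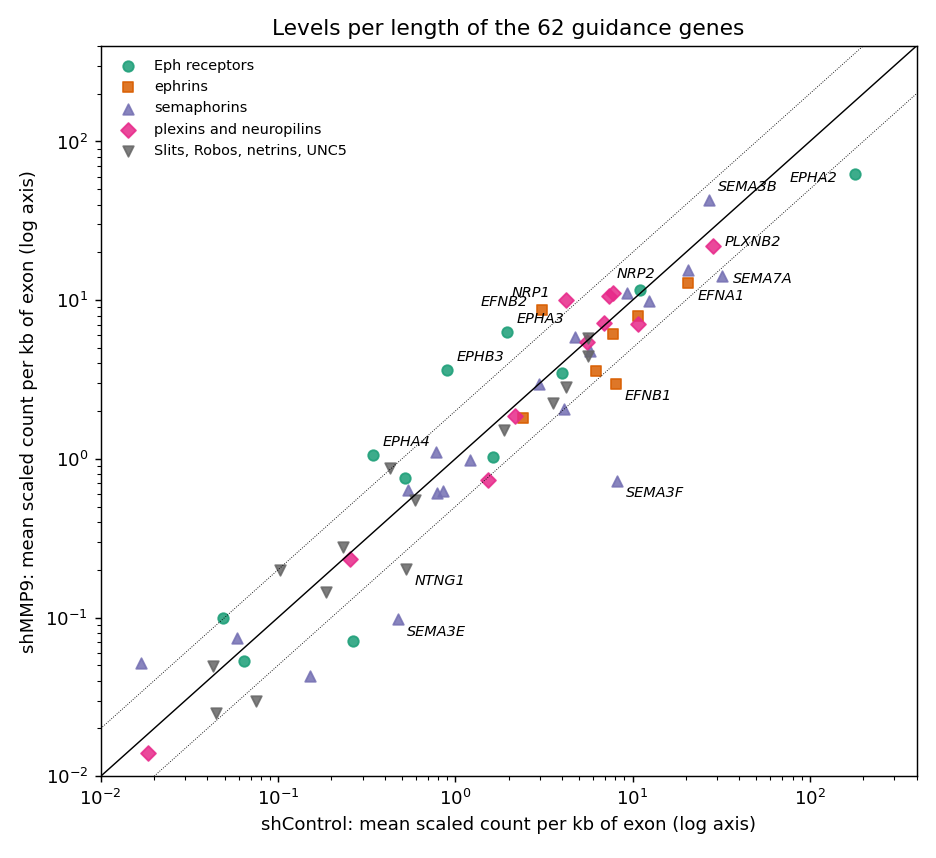
Mean scaled count per kilobase of exon in shControl (x, log axis) and shMMP9 (y, log axis) of the 62 guidance genes, with the solid line for equal levels and dotted lines for 2-fold differences. EPHA2 is highest in both groups and lies under the lower dotted line, as SEMA3F does, while EPHB3, EPHA3, EFNB2 and NRP1 lie above the upper one.

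Members that lie side by side in the genome did not always move together. EFNA4, EFNA3 and EFNA1 start within 63.7 kilobases of each other on chromosome 1, from 155063731 to 155134857, and all 3 were lower. EFNA3 and EFNA4 share 853 and 189 exon bases with a read-through gene on the same strand, so their reads may be divided. ROBO3 and ROBO4 start 18.3 kilobases apart on chromosome 11 and were both lower. SEMA3F and SEMA3B start 112.5 kilobases apart on chromosome 3 and went opposite ways, and of the 3 tested genes that start between them 1 was lower and none higher. SEMA3F shares 110 exon bases with its antisense gene SEMA3F-AS1, which was weak at 0.462 and 0.63. EFNB2 shares 1313 exon bases with an antisense gene, AL138689.2, at 0.0352 in shControl and 0.272 in shMMP9. EPHA4, NRP1 and NRP2 share 353, 561 and 147 exon bases with antisense genes that were not analysed here, and without a known strand setting reads from these pairs cannot be told apart. EFNB2 is the sole guidance gene in the table on chromosome 13. Over the 204 genes of that chromosome with mean CPM at or above 5, the median difference was 0.30 higher than over all such genes on the log2 scale, beside 1.43 for EFNB2.

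Genes chosen as partners of these ligands and receptors were followed in a list of 61, of which 60 were in the table and 57 tested. In shMMP9 16 were higher and 26 lower (73.7%, beside 57.5% of all genes tested), with a median log2 difference of -0.13. Receptor partners and other guidance ligands had 3 higher and 4 lower of 9 (77.8%). RGMB, a ligand of the netrin receptor neogenin, fell from 84.7 ± 0.424 to 30.8 ± 2.875 and the adhesion molecule L1CAM, a partner of neuropilin-1, fell from 258 ± 18.02 to 101 ± 2.20 (log2 differences -1.43 and -1.35). FLRT2, a repulsive ligand for UNC5 receptors, rose from 9.98 ± 1.64 to 44.9 ± 2.94 (log2 difference 2.07). Semaphorin and plexin signalling had 5 higher and 7 lower of 15 (80.0%). MICAL2, an enzyme that oxidises actin, fell by 1.24 and the small GTPase gene RRAS, which plexins switch off, by 0.92, and ARHGEF11, an exchange factor bound by plexin B, rose by 0.79 on the log2 scale (adjusted p from 1.99e-08 to 1.70e-07 over these 3).

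Eph and ephrin signalling had 5 higher and 8 lower of 18 (72.2%, beside 57.5% of all genes tested). The exchange factor gene ARHGEF28 fell from 63.5 ± 2.50 to 18.8 ± 0.539 (log2 difference -1.70, adjusted p = 6.04e-11), and the kinase genes ABL2 and FYN had log2 differences of -0.69 and 0.70. ARHGEF28 was put on this list by choice and counts in the 72.2%, and a link of it to Eph receptors was not tested. Slit and Robo signalling had 1 higher and 2 lower of 5 (60.0%, near the 57.5% of all genes tested). SRGAP1, SRGAP2 and SRGAP3, whose products bind Robo receptors, had log2 differences of -0.94, 0.20 and -0.31. The call of SRGAP3 ended without shControl replicate 1 (adjusted p = 0.0662) and without shMMP9 replicate 3 (adjusted p = 0.0625).

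**Figure D4:**
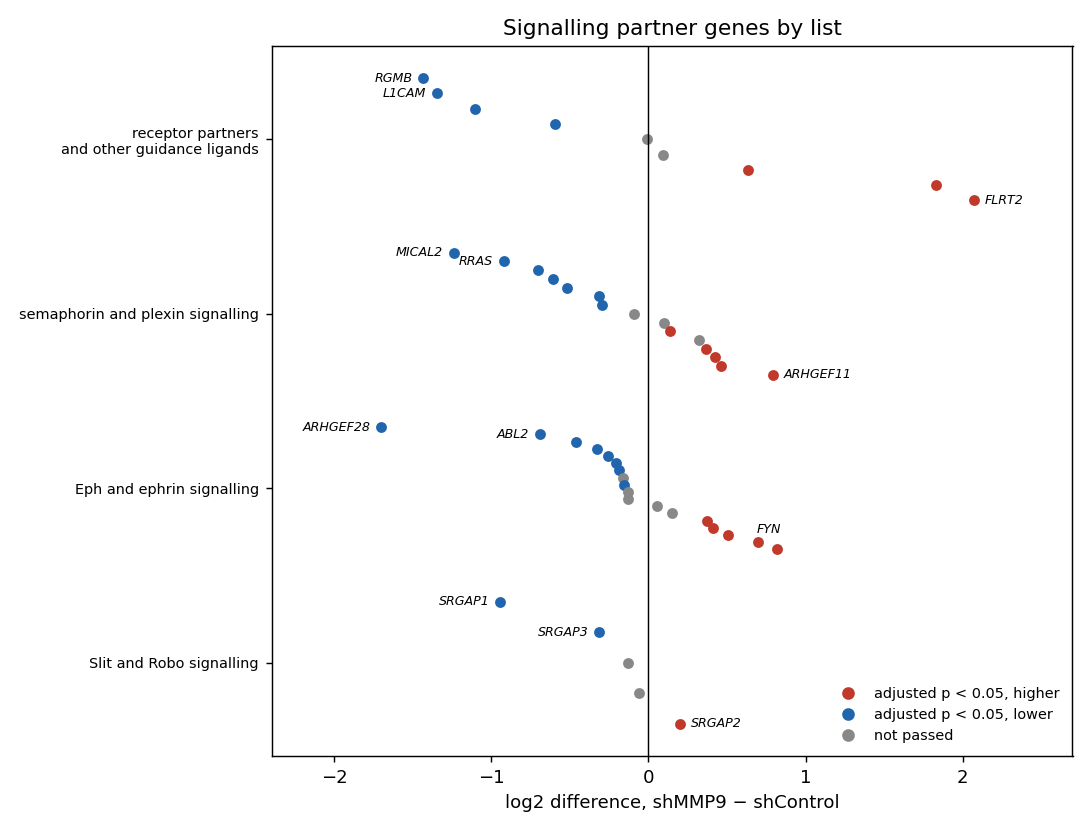
Each point is the log2 difference (shMMP9 minus shControl) of 1 tested signalling partner gene, in 4 lists, coloured by the limma call, with names for the 3 genes per list whose adjusted p was lowest. Both directions appear in each of the 4 lists shown, and the widest range is that of receptor partners and other ligands, from -1.43 to 2.07.

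The weaker calls did not all hold with fewer libraries, and the genes concerned are named here whatever their level. Of the 45 guidance genes that passed, 33 also passed with each library left out in turn and 12 did not. Without shControl replicate 3, 9 calls ended (EPHB2, NTNG2, PLXNA3, SEMA3D, SEMA3G, SEMA6B, SEMA6C, SLIT2 and UNC5D, adjusted p from 0.0558 to 0.203). Without shMMP9 replicate 2, 8 ended (EPHA7, EPHB2, PLXNA3, SEMA3D, SEMA4B, SEMA4D, SEMA6C and UNC5D, adjusted p from 0.0529 to 0.207). Without shControl replicate 2, 7 ended (EPHA7, EPHB2, PLXNA3, SEMA3D, SEMA4D, SEMA6B and SEMA6C, adjusted p from 0.0574 to 0.107). Without shMMP9 replicate 3 the calls of EPHB2, SEMA3D and SEMA3G ended (adjusted p from 0.0838 to 0.0967), without shMMP9 replicate 1 those of PLXNA3 and SEMA6B (adjusted p of 0.0724 and 0.125) and without shControl replicate 1 that of SEMA3G (adjusted p = 0.0545). With all libraries these 12 had log2 differences between -0.46 and 0.52, with EPHB2 at -0.20, PLXNA3 at -0.22 and SEMA6B at -0.32. The difference of EPHB2 was -0.12 without shControl replicate 3, and that of PLXNA3 was -0.13 without shMMP9 replicate 2.

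Of the 62 genes 21 had a mean scaled count under 5, of which 18 were tested, and 4 were higher and 6 lower. So 55.6% of these 18 passed. Of all genes tested, 57.5% passed at any level and 64.0% at a mean scaled count of 5 or more. The share among all weaker genes was therefore under 57.5%. PLXNA4, SEMA4A and SLIT1 were not tested, with 2 to 15 estimated reads per library. Fold sizes of genes at this level are held down by the pseudocount, as shown for SEMA3E, NTNG1 and UNC5B.

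Across the series, the listed genes held 21854111 to 28005552 estimated reads per library, and mitochondrially encoded genes held 1.64 to 1.79% of them in shControl and 0.62 to 0.71% in shMMP9. Melanocytic markers were partly present, with 6 of 8 in the table and MLANA (0.102 and 0.392) and PMEL (1.70 and 1.755) low in both groups, and the summed level of the 6 was 434.5 to 467.6 in shControl and 989.6 to 1071 in shMMP9. SOX10 (from 378 ± 18.4 to 785 ± 40.6) and S100A1 (from 27.6 ± 2.86 to 189.9 ± 5.76) made up most of that sum and rose, whereas MITF fell from 35.5 ± 2.48 to 27.7 ± 0.876 (log2 difference -0.34, adjusted p = 6.66e-04). Keratinocyte markers (3 of 6 in the table) summed to 70.04 to 81.64 in shControl and 127.4 to 135.6 in shMMP9, fibroblast markers (6 of 6) to 43.44 to 50.76 and 21.46 to 24.95, and leukocyte markers (2 of 6, without PTPRC) to 113.5 to 134.6 and 97.74 to 100.2. Neuronal markers (6 of 6), relevant because guidance genes are known from neurons, summed to 256.1 to 326 and 371.2 to 416.2, most of it the tubulin gene TUBB3, with RBFOX3 at means of 1.28 or less. They did not move together. MAP2 fell from 3.82 to 0.291 and ELAVL4 from 0.696 to 0.0703, while TUBB3, SNAP25 (from 1.35 to 4.81) and SYN1 (from 0.479 to 1.595) rose. Of the leukocyte markers CD68 fell from 120.8 to 92.4 and LYZ rose from 2.20 to 6.83. Of the keratinocyte markers KRT10 and KRT14 rose, and KRT5 was not tested (0.370 and 0.0367). The part of these shifts in the results above was not tested.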

How the data were processed

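The series holds 6 RNA sequencing libraries, 3 shControl and 3 shMMP9, grouped by their labels. The submitters' processing notes name STAR 2.6.1d, Partek and the build hg38. For the annotation, the counting tool and its strand setting, a statement is not given in the sources used here. Per gene, the deposited table gives log2(scaled count + 1), and tests on the values showed that the upper quartile is the same in each library. Reads were estimated from the smallest step of each library's values, and these values are not raw counts, so the count test that was planned for raw counts was not used. Genes were kept that had 10 estimated reads, at median depth, in at least 3 libraries and 15 summed over all (17194, with 1345 removed).

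Groups were compared with limma 3.58.1 in R 4.3.3, with a variance trend on the log2 values and Benjamini-Hochberg adjustment over all genes tested, and the fit was tested on simulated data. Levels per kilobase use merged exons of GENCODE 29. Figures were drawn with matplotlib 3.10.9. Alternatives were the replicate block, leaving out each library, 2 other scalings, no filter, pseudocounts of 0.25 and 4, limma-voom, no variance trend and a threshold of 0.01.

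By rule, values in every library are given for MMP9, for guidance genes that passed at a mean scaled count of 5 or more with a log2 difference of at least 1 in size, and for the member of each family with the highest level per length. Weaker members are named where they passed with such a difference. Of the partner genes the 3 per list whose adjusted p was lowest are named. A further list of partner genes counts in their totals and is not reported here. The members, lists and tests were chosen with earlier results of these data known. The genes whose calls ended with a library left out, and the weak or untested genes EPHA6, SEMA5A, PLXNC1, NTN1, SEMA6D, PLXNA4, SEMA4A and SLIT1, are named outside this rule.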

Additional observations from a re-analysis of the deposited data

How the results depend on the processing

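Of the 45 guidance genes that passed, 33 passed under all 14 alternative fits and no gene that passed changed direction in any of them. The number lower by 2-fold or more was 10 with limma-voom against 6 in the reported fit. Leaving out each library in turn gave 12 to 14 guidance genes higher and 24 to 31 lower. Over all genes tested the same fits gave 3759 to 4511 higher and 4917 to 5714 lower, against 4304 and 5584 with all libraries. Another scaling moved the median of all genes by 0.0442 (median-of-ratios) or 0.0481 (total reads), gave 14 guidance genes higher and 27 lower in both cases, and ended the calls of EPHB2, PLXNA3, SEMA3D and SEMA6B. Over all genes tested, median-of-ratios scaling gave 4949 higher and 4946 lower, and total-read scaling 4988 and 4898. A threshold of 0.01 left 11 guidance genes higher and 22 lower, and calls over all genes were not counted at that threshold. Replicate numbers did not pair the samples (correlations of same-numbered deviations of 0.04, -0.13 and -0.026), and the replicate block gave 14 guidance genes higher and 31 lower, and 15 and 25 partner genes. Genes that did not pass changed sign. With 1 library left out in turn, EPHA5 ranged from -0.24 to 0.0261, EPHB4 from -0.0608 to 0.172, PLXNA1 from -0.0274 to 0.0839, PLXNB1 from -0.0459 to 0.0266, PLXNC1 from -0.2333 to 0.0387 and SEMA4F from -0.054 to 0.0332. With median-of-ratios and total-read scaling PLXNB1 was at 0.0383 and 0.0429 and SEMA4F at 0.0424 and 0.0468. The cause was not tested. Depth limits the weak genes, and pseudocounts or limma-voom moved the values of EPHA6, NTNG2, SEMA3G, SEMA5A, SEMA6C and UNC5D, among others, by over 1.5 times.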
